A study of Mus musculus with 88 samples.

Results

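The 28 genes described here encode the enzymes that make cholesterol and long-chain fatty acids in mouse embryonic stem cells, together with the regulators of that programme. They were chosen by name, with earlier results of these data known. All 28 were found among the 54633 genes of the 3 bulk RNA tables and among the 15830 genes of the single-cell table, and all 28 passed the filter on low values in every bulk comparison. By role they were 5 enzymes of the mevalonate pathway (Acat2, Hmgcs1, Mvk, Pmvk, Mvd), 2 of isoprenoid synthesis (Idi1, Fdps), 3 that build squalene and close it to lanosterol (Fdft1, Sqle, Lss), 8 that turn lanosterol into cholesterol (Cyp51, Tm7sf2, Msmo1, Nsdhl, Hsd17b7, Ebp, Sc5d, Dhcr7), 3 regulators (Srebf2, Srebf1, Insig1), the sterol carrier Stard4, and 6 enzymes of fatty acid synthesis (Fasn, Scd1, Scd2, Acaca, Acly, Elovl6).

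Cells make cholesterol from acetyl-CoA through mevalonate, farnesyl pyrophosphate, squalene and lanosterol, and they make palmitate from the same acetyl-CoA through acetyl-CoA carboxylase and fatty acid synthase. Transcription of both pathways is driven by the SREBP factors, the products of Srebf2 and Srebf1, which are held in the endoplasmic reticulum by SCAP and INSIG proteins while sterols are plentiful and are released to the nucleus when sterols run low. Cultured cells also take up cholesterol from serum lipoproteins, so that the level of these transcripts follows the sterol supply as well as the cell state.

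The study asked how loss of subunits of Polycomb repressive complex 2 (PRC2), which methylates lysine 27 of histone H3, alters the exit from pluripotency. MTF2 belongs to the PRC2.1 form of the complex, JARID2 to PRC2.2, and EED is a core subunit of both. The directed series held 48 bulk RNA libraries labelled as strain E14 and grown in serum with LIF: WT (E14, 129/Ola background), Mtf2 null and Jarid2 null cells, each undifferentiated and after 5 h, 24 h and 48 h of monolayer culture towards mesoderm or towards endoderm, with 2 libraries per group that the study called technical replicates. Cells bound for mesoderm received Activin A, BMP4, CHIR99021 and FGF2 for 24 h and then BMP4 with the receptor inhibitor A-83-01. Cells bound for endoderm received Activin A, CHIR99021 and FGF2 and then Activin A with DM3189, an inhibitor of BMP receptors. A further 24 bulk samples were labelled as embryoid bodies at days 0, 2, 4 and 7, with the columns of day 0 named as monolayer cells. They came from 3 lines labelled as mutant (mtf2ko, jarid2ko, eedko) and from a WT line for each (pclwt-mtf2wt, jm8-jarid2wt, j1-eedwt), 1 sample per line and day. The other 16 libraries were single-cell plates of embryoid bodies labelled as strain E14, from WT cells and from cells null for Mtf2, for Jarid2 or for Eed, at days 0, 4, 7 and 10 after removal of LIF, 1 library per genotype and day. Each genotype was 1 cell line, the Mtf2 null line being a gene trap, so that genotype and line cannot be told apart. The methods name other WT lines (Pcl1-3 WT, JM8 and J1) as matched in background to the Mtf2, Jarid2 and Eed null cells, so that in the comparisons with E14 WT genotype and strain background cannot be told apart either. P-values over technical replicates measure only the spread between these libraries.

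The promoters of these genes are shown here because SREBP, NF-Y and SP1, the factors best known to act on these genes, bind in front of their start sites and many of the members moved together. RefSeq promoters on GRCm38.p6 were matched for 22 of the 28 members (27 promoters); Stard4, Scd2, Sqle, Fdps, Scd1 and Fdft1 had no match. In the 250 bases before the start site, on either strand, the sterol regulatory element TCACNCCAC was found in 1 of 27 member promoters (3.7%), against 1.05% of all 32851 promoters. The letters CCAAT, bound by NF-Y, were found in 70.4% of member promoters and in 33.8% of all. The GC box GGGCGG, bound by SP1, was found in 74.1% and 32.7%, and both together in 59.3% and 11.0%. Member promoters had a median of 18 CpG and 62.8% GC, against 6 CpG and 52.4% GC in all promoters, and a short GC-rich motif is met more often in such sequence. A match of letters is a description and not a measured binding site, and no match says only that these letters were not in this window.

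The following 5 windows are written 5′ to 3′ on the gene's own strand, with the letters of the 3 motifs in capitals in either orientation. Hmgcs1 (chr13:119690101-119690350, plus strand) is shown as the one member with a full sterol regulatory element. Idi1 (chr13:8885356-8885605, plus strand) and Insig1 (chr5:28071162-28071411, plus strand) are shown as members that were low in undifferentiated Mtf2 null cells, Fasn (chr11:120824548-120824797, minus strand) for the fatty acid branch, and Elovl6 (chr3:129532136-129532385, plus strand), which held none of the 3 motifs, as the member with the largest rise in the same cells. Ebp, which was also higher in them, held 2 CCAAT and 1 GC box, and Acaca, which was not called, held none of the 3.
Hmgcs1: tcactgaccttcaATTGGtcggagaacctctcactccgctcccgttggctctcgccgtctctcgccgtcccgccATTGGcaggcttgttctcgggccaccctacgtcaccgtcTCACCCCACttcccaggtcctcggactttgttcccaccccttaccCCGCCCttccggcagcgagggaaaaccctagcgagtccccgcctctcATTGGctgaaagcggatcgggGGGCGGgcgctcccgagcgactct
Idi1: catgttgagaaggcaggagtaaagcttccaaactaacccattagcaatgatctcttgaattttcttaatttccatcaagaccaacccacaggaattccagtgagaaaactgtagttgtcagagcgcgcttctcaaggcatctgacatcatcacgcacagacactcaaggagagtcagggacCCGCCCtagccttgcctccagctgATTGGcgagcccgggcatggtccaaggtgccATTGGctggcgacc
Insig1: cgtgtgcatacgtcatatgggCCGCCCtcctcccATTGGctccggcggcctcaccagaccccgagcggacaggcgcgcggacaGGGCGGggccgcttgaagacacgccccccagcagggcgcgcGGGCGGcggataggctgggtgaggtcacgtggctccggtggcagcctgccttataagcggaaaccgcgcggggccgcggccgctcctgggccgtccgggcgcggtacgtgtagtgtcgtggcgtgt
Fasn: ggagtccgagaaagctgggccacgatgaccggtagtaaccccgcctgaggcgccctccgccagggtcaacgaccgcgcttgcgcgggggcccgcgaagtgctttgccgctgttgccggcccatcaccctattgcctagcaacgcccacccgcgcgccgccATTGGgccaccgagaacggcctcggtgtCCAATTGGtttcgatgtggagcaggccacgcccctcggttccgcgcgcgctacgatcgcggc
Elovl6: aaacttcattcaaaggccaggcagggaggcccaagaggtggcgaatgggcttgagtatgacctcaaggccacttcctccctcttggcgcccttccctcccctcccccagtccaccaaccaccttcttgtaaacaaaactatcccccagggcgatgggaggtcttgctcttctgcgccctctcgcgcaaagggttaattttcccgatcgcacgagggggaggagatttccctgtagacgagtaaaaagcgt
The CCAAT letters of Fasn overlap each other on the 2 strands in the run CCAATTGG.

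The targeted transcripts were checked first. In the directed series Mtf2 stood at 30.2 to 38.2 counts scaled to library size (CPM, counts per 1e6 counts) in the Mtf2 null libraries and at 205.7 to 508.7 CPM in WT. The Jarid2 transcript of the libraries labelled Jarid2 null overlapped that of WT at 48 h of the mesoderm series (397 and 448 CPM against 407 and 388 CPM), and their label is given as a label. In the single cells Mtf2, Jarid2 and Eed were lower in the library of their own mutant than in the WT library of the same day on all 4 days, with Eed at 11.5 CPM against 478.0 CPM at day 0. In the bulk embryoid bodies at day 0 Mtf2 was at 323.9 CPM in the line labelled mtf2ko against 412.8 CPM in its WT line, and Jarid2 at 602.8 against 507.2 CPM in the line labelled jarid2ko, so these samples too are named by their labels. Total counts were 9111880 to 16898264 in the directed libraries, 3005707 to 22944105 recovered reads in the 46 embryoid body columns and 1339722 to 3889890 UMIs in the single-cell libraries. Marker sums of the directed series, here and below, cover only the listed markers that passed the filter on low counts. For definitive endoderm (Sox17, Foxa2, Cxcr4, Gsc, Cer1) the sum was 0.780 and 0.848 CPM in WT libraries of the endoderm series at 48 h. The tissue named in the label was thus not visible in the markers that passed. Undifferentiated cells had 4 libraries per genotype, 2 in each series, but the same-numbered ones of the 2 series deviated together (correlations across genes of 0.275 in WT, 0.227 in Mtf2 null and 0.486 in the libraries labelled Jarid2 null), and the 4 may not be independent.

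In the directed series undifferentiated Mtf2 null cells had lower levels of most sterol pathway transcripts than E14 WT cells. Of the 28 members, 22 were lower and 2 higher than in WT at an adjusted p under 0.05 over 16655 genes tested, while 26% of all genes were called lower and 28.5% higher. The median difference over the members was -0.92 on the log2 scale, with a range from -2.09 to 1.26, and that over all genes was -0.04. Fold changes exceeded 2 in 12 members that were lower and in 1 that was higher. The 4 Mtf2 null libraries lay below all 4 WT libraries for 21 members and above them for 2, and 22.5% and 26.3% of all genes did so. In bulk RNA, fewer cells of a type and less RNA per cell cannot be told apart. The lower level was not seen at day 0 of the line labelled mtf2ko against its own WT line. There 15 of 28 members were above the WT line and 13 below, with a median log2 ratio of 0.07.

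**Figure D1:**
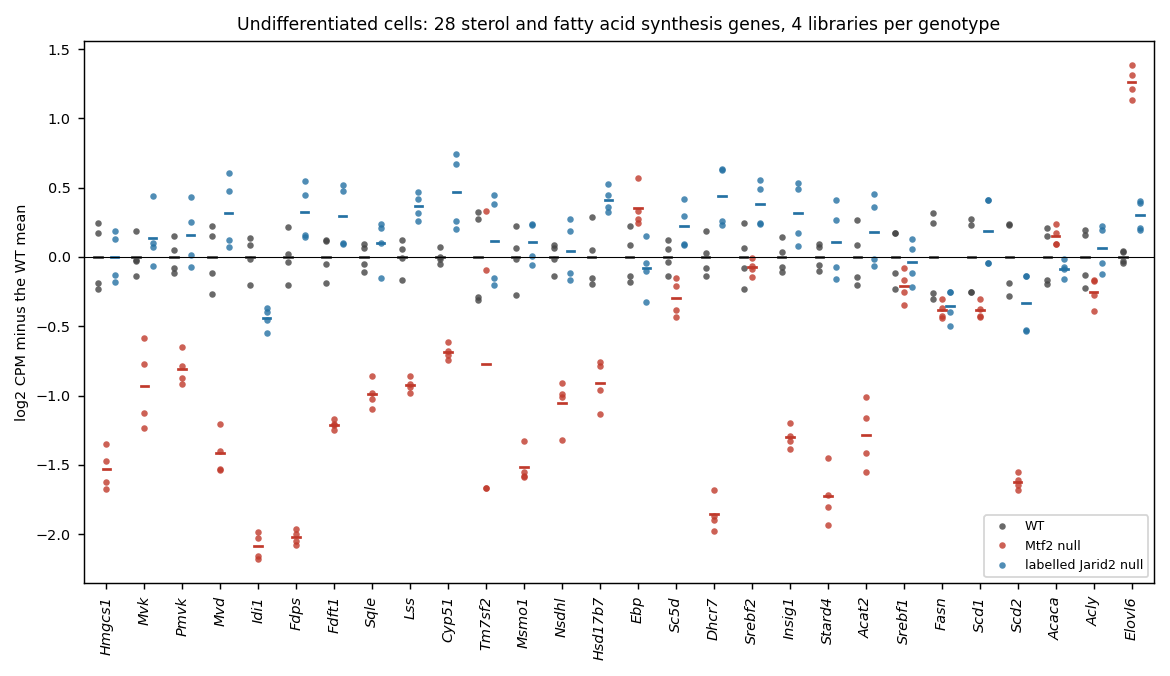
Level of each of the 28 members in undifferentiated cells, as log2 CPM minus the WT mean (y axis), with 1 point per library (4 WT, 4 Mtf2 null and 4 labelled Jarid2 null) and a bar at the mean of each genotype. All 4 Mtf2 null points lie below the WT points for 21 members, with Idi1 and Fdps lowest, and above them for Elovl6 and Ebp.

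Every early enzyme of the sterol pathway was in the lower set. All 5 mevalonate enzymes, both isoprenoid enzymes and all 3 enzymes from squalene to lanosterol were called lower, as were 7 of the 8 later enzymes. Idi1, which isomerises isopentenyl pyrophosphate, was at 101.4 and 108.8 CPM in the WT libraries of the endoderm series and at 89.3 and 112.6 CPM in those of the mesoderm series, against 22.7, 25.9, 23.0 and 25.1 CPM in the Mtf2 null. The groups were far apart, and the difference was 4.26-fold lower (log2 -2.09 ± 0.09 SE, adjusted p = 7.1e-11). Fdps, which makes farnesyl pyrophosphate, was at 65.5, 56.01, 75.0 and 63.1 CPM in WT and at 15.6, 16.2, 16.6 and 15.3 CPM in the Mtf2 null, a 4.06-fold lower level (-2.02 ± 0.11, adjusted p = 1.3e-09). Dhcr7, the reductase of the last step to cholesterol, was at 38.2, 35.4, 42.6 and 34.04 CPM in WT and at 10.0, 11.6, 9.52 and 10.2 CPM in the Mtf2 null (-1.85 ± 0.12, adjusted p = 9.2e-09). None of these 3 genes, picked by the test on the same libraries, had a Mtf2 null library within the WT range.

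The other sterol enzymes fell by smaller amounts. Hmgcs1, which forms HMG-CoA, fell by 1.54, Msmo1 by 1.52, Mvd by 1.43, Acat2 by 1.29 and Fdft1, squalene synthase, by 1.21 on the log2 scale. Nsdhl (-1.05), Sqle (-0.99), Lss (-0.93), Mvk (-0.91), Hsd17b7 (-0.91), Pmvk (-0.80), Cyp51 (-0.68), Tm7sf2 (-0.66) and Sc5d (-0.29) followed. Tm7sf2 differed between the series: in the endoderm series it was at 12.2 and 12.4 CPM in WT and 4.77 and 4.78 CPM in the Mtf2 null, and in the mesoderm series at 18.3 and 19.0 against 14.2 and 19.1 CPM, where the groups overlapped. Reads of Acat2 may be shared with Acat3 and with the tail of Tcp1, those of Fdps with its pseudogenes and those of Idi1 with Idi2, and the counting could not separate these with certainty.

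Regulators and fatty acid enzymes behaved less uniformly. Srebf2, the transcription factor gene of the sterol branch, was at 165.2, 134.6, 187.7 and 149.6 CPM in WT and at 143.1, 151.3, 148.6 and 157.6 CPM in the Mtf2 null; the groups overlapped (-0.08 ± 0.10, adjusted p = 0.52). Srebf1 was at 42.8, 32.3, 42.6 and 34.9 CPM in WT and 29.8, 33.7, 31.8 and 35.9 CPM in the Mtf2 null, also with overlap (-0.22 ± 0.11, adjusted p = 0.1). Insig1, the sterol-regulated retention factor, did differ: 60.3, 54.5, 64.8 and 56.03 CPM in WT against 24.0, 22.5, 23.5 and 25.7 CPM, a fall of 1.30 ± 0.11 (adjusted p = 9.1e-08). The sterol carrier Stard4 fell by 1.72. Of the fatty acid enzymes Scd2 fell by 1.64 and Fasn and Scd1 by 0.41 each (adjusted p = 0.015 and 0.024), while Acaca (0.14) and Acly (-0.26) were not called. Reads of Scd1 and Scd2 could be shared with each other and with Scd3 and Scd4.

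Elovl6, which lengthens palmitate to stearate, went the other way. It was at 98.9, 94.5, 99.6 and 93.6 CPM in WT and at 223.6, 211.9, 251.8 and 240.4 CPM in the Mtf2 null (2.40-fold higher, log2 1.26 ± 0.08, adjusted p = 5.8e-09). Ebp, the sterol isomerase, was higher by a small amount, at 9.07, 9.33, 12.0 and 10.9 CPM in WT and 12.4, 12.9, 12.2 and 15.2 CPM in the Mtf2 null (0.35 ± 0.12, adjusted p = 0.024). Within each series the pattern was the same in direction: 18 members were lower in the mesoderm series alone and 21 in the endoderm series alone, 18 of them shared, with Tm7sf2, Fasn and Scd1 called in the endoderm series only, and Elovl6 was higher in both. With the same-numbered libraries of the 2 series summed, 19 members were lower and 1 was higher.

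Other lipid genes moved in both directions. Of 19 other sterol genes tested, 7 were lower and 11 higher. Abcg1, a cholesterol exporter, was higher by 1.43, Soat1, which esterifies cholesterol, by 1.33, and Mylip, a ubiquitin ligase, by 1.08. Of 17 other genes of fatty acid synthesis 11 were lower and 3 higher, among them Acss2 (-2.08), which makes acetyl-CoA from acetate, Fads2 (-1.27), Hacd3 (-0.71) and Me1 (1.27). Of 16 genes of fatty acid oxidation 6 were lower and 5 higher, led by Acaa2 (-2.07), Slc25a20 (1.04), Acadl (0.94) and Acadvl (0.65), with no common direction.

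Markers of other cell types moved with the same libraries. Visceral endoderm cells make lipoproteins, and 6 of their markers were listed (Apoa1, Apob, Ttr, Afp, Amn, Dab2). Those that passed the filter of each series summed to 50.02 to 60.3 CPM in undifferentiated Mtf2 null cells. In WT they summed to 5.88 to 8.34 CPM. In the fit over both series all 3 that passed were higher. Markers this low in WT can pass the filter through the Mtf2 null libraries, so this count may be set in part by the filter. Of the 8 pluripotency markers 4 were higher and 2 lower, with Klf4 at 1.24, Tfcp2l1 at 1.59 and Zfp42 at -2.47 on the log2 scale. Their part in the level of the sterol genes was not tested.

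The count of members called after 5 h of directed culture depended on the fit. In the mesoderm series it was not above the share of all genes in either direction. In the mesoderm series at 5 h, 2 members were higher and 3 lower in the Mtf2 null, where 14% and 14.7% of all 18361 genes were called. Stard4 was at 45.1 and 38.1 CPM in WT and 19.0 and 22.9 CPM in the Mtf2 null (1.98-fold lower, adjusted p = 0.00033), Pmvk at 30.9 and 29.9 against 13.3 and 19.1 CPM (adjusted p = 0.0019), and Mvk at 12.8 and 12.6 against 6.32 and 7.96 CPM (adjusted p = 0.014). Insig1 was now on the higher side, at 36.4 and 35.1 CPM in WT and 53.3 and 53.3 CPM in the Mtf2 null (0.58 ± 0.19, adjusted p = 0.031), as was Acaca, at 157 and 170 against 221 and 206 CPM (0.38 ± 0.12, adjusted p = 0.026). Fdps, which was 4.06-fold lower in undifferentiated cells, stood at 78.2 and 76.05 CPM in WT and at 63.9 and 72.2 CPM in the Mtf2 null at 5 h. Whether the effect at 5 h differed from that in undifferentiated cells was not tested. With only the 2 groups compared in the fit 7 were higher and 6 lower, and without a filter on low counts 5 and 5. The count of 5 was 1 without Mtf2 null library 1 and 2 without either WT library.

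In the endoderm series at 5 h, 5 members were lower and 0 higher, against 15.3% and 15.7% of 19261 genes. The count of lower members was near the share of all genes. Of these Stard4, Pmvk and Mvk were lower in the mesoderm series too. Stard4 was at 34.3 and 32.7 CPM in WT and 16.7 and 20.3 CPM in the Mtf2 null (-0.86 ± 0.18, adjusted p = 0.0012), Pmvk at 23.9 and 22.1 against 14.5 and 15.9 CPM, and Acat2 at 71.9 and 69.3 against 51.8 and 47.0 CPM. Mvk (-0.58) and Tm7sf2 (-0.52) were the other members called. With only the 2 groups compared in the fit 4 were higher and 5 lower. The count was 1 without WT library 1, 2 without Mtf2 null library 2, and 3 without either of the other libraries.

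At 24 h the same 3 genes were called lower in both series and none higher. This count was not above the share of all genes called lower in either series. In the mesoderm series, where 11.7% of genes were lower and 11.2% higher, Stard4 was at 50.1 and 42.1 CPM in WT and 30.2 and 24.2 CPM in the Mtf2 null (-0.76 ± 0.18, adjusted p = 0.0036), Mvk at 18.3 and 17.4 against 10.7 and 10.5 CPM, and Tm7sf2, a sterol reductase, at 33.1 and 31.5 against 21.6 and 23.9 CPM. In the endoderm series, where 12.4% were lower and 13.8% higher, Stard4 was at 43.2 and 47.0 against 20.5 and 23.8 CPM (-1.02 ± 0.18, adjusted p = 0.00014), Mvk at 16.1 and 13.5 against 10.3 and 10.4 CPM and Tm7sf2 at 15.2 and 11.8 against 9.60 and 10.4 CPM. The ranges of these 3 genes, which were picked by the test on the same libraries, did not overlap in either series. With only the 2 groups compared in the fit, 2 were higher and 8 lower in the mesoderm series and 2 higher and 7 lower in the endoderm series. Without a filter on low counts 6 were lower in each series and 0 higher. The mesoderm count of 3 fell to 1 without Mtf2 null library 1 or WT library 2 and to 0 without Mtf2 null library 2 or WT library 1, and the endoderm count to 1 without WT library 1 or Mtf2 null library 2. Srebf2 was at 227 and 222 CPM in WT and 231 and 249 CPM in the Mtf2 null in the mesoderm series and at 198 and 180 against 240 and 220 CPM in the endoderm series, and did not pass the test in either.

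**Figure D2:**
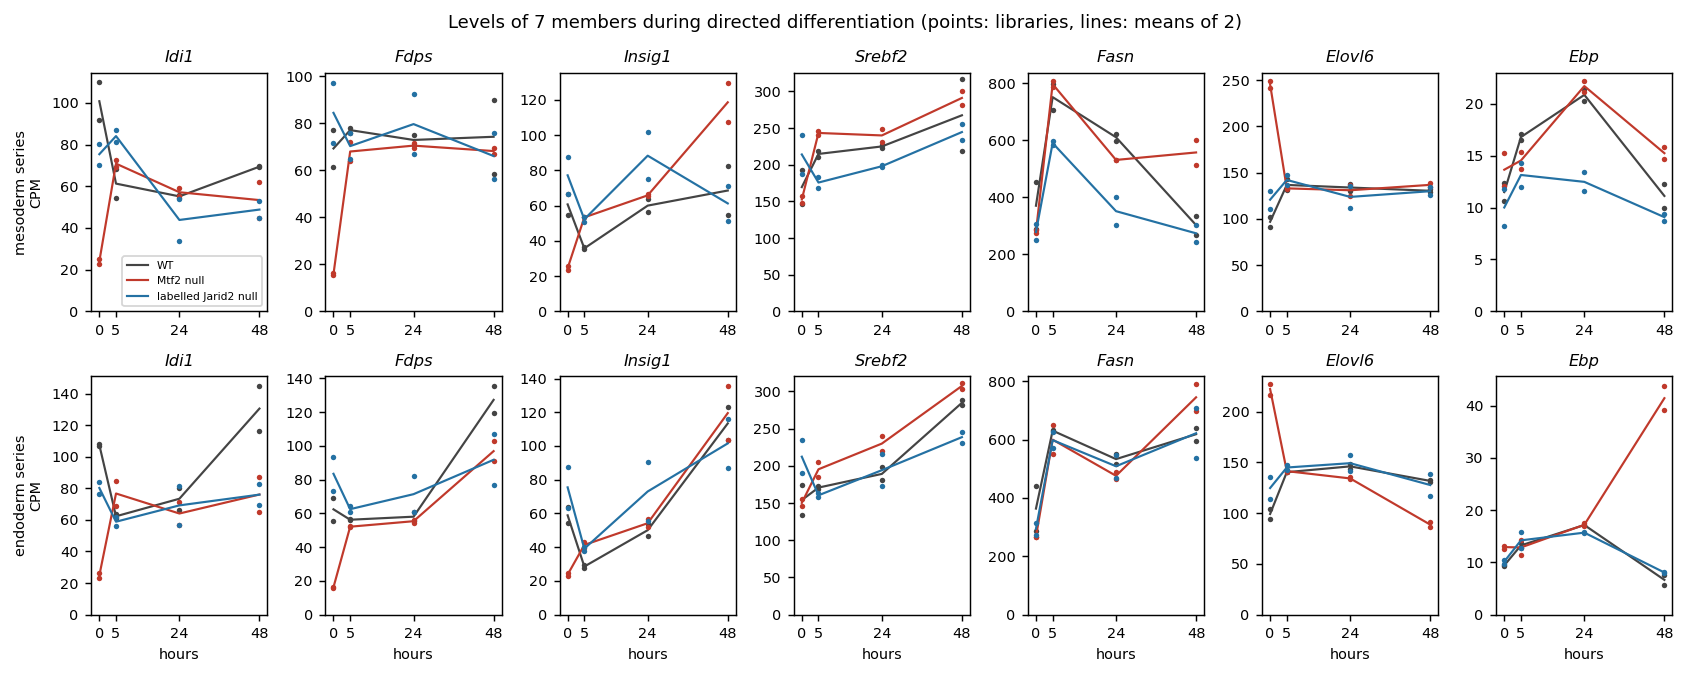
Level of 7 members (Idi1, Fdps, Insig1, Srebf2, Fasn, Elovl6, Ebp) in CPM against hours of directed culture in the mesoderm and endoderm series, with 1 point per library and lines through the mean of the 2 libraries of each genotype. Mtf2 null cells start low for Idi1, Fdps and Insig1 and high for Elovl6. At 5 h of the mesoderm series Insig1 is above WT (53.3 and 53.3 CPM against 36.4 and 35.1 CPM), and Ebp parts from WT at 48 h of the endoderm series (43.7 and 39.2 CPM against 7.62 and 5.65 CPM).

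At 48 h more members were called, in unlike directions in the 2 series. In the mesoderm series 7 members were higher in the Mtf2 null and 0 lower, against 15.2% and 12.7% of all genes, and 4 of the 7 were fatty acid enzymes. Acaca, acetyl-CoA carboxylase, was at 88.4 and 104 CPM in WT and 151 and 166 CPM in the Mtf2 null (1.65-fold higher, adjusted p = 0.0002). Fasn, fatty acid synthase, was at 269 and 335 against 515 and 599 CPM (1.84-fold, adjusted p = 0.00084), and Insig1 at 54.4 and 82.7 against 107 and 130 CPM (1.74-fold, adjusted p = 0.0028). The Mtf2 null libraries were above both WT libraries for all 3, which were picked by the test on these libraries. Scd2 (0.76), Scd1 (0.60), Ebp (0.46) and Sc5d (0.42) completed the set, while Srebf2 was at 219 and 316 against 301 and 281 CPM and Srebf1 at 45.3 and 53.6 against 62.06 and 62.05 CPM (adjusted p = 0.6 and 0.075). The 2 WT libraries differed from each other here: without WT library 1 the count was 4 (3 higher, 1 lower), and without WT library 2 it was 11, all higher. Visceral endoderm markers that passed the filter summed to 246 and 228 CPM in the Mtf2 null and 11.0 and 9.29 CPM in WT. All 4 were higher, though markers so low in WT can pass the filter through the Mtf2 null libraries. Mesoderm markers (T, Mixl1, Eomes, Mesp1, Hand1, Pdgfra, Kdr) summed to 68.1 and 65.9 CPM in the Mtf2 null against 15.6 and 18.1 CPM in WT, and definitive endoderm markers to 33.98 and 25.9 against 1.11 and 2.28 CPM. The part of these markers in the differences was not tested.

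In the endoderm series at 48 h, 10 members were lower and 3 higher, against 17.5% and 20.4% of all genes. Ebp stood apart: it was at 7.62 and 5.65 CPM in WT and at 43.7 and 39.2 CPM in the Mtf2 null, 6.21-fold higher (log2 2.63 ± 0.15, adjusted p = 5.8e-12). Srebf1 was at 52.1 and 45.9 against 99.4 and 84.1 CPM (1.87-fold higher, adjusted p = 1.8e-05) and Scd1, the stearoyl-CoA desaturase, at 188 and 184 against 303 and 288 CPM (1.59-fold higher, adjusted p = 0.0014). Among the lower members Elovl6, which had been high before culture, was at 131 and 132 CPM in WT and 86.1 and 91.0 CPM in the Mtf2 null (-0.57 ± 0.10, adjusted p = 0.00014), Tm7sf2 at 22.6 and 18.8 against 12.9 and 12.1 CPM and Stard4 at 68.7 and 85.2 against 38.5 and 49.3 CPM. Idi1 (-0.78), Hmgcs1 (-0.60), Msmo1 (-0.60), Pmvk (-0.50), Sqle (-0.48), Hsd17b7 (-0.44) and Fdps (-0.39) were lower by less than 2-fold. Srebf2 (282 and 288 against 311 and 304 CPM) and Insig1 (103 and 123 against 103 and 136 CPM) were not called. The count was 7 (3 higher, 4 lower) without Mtf2 null library 1. Visceral endoderm markers summed to 350 and 288 CPM in the Mtf2 null against 10.7 and 7.72 CPM, and definitive endoderm markers to 56.6 and 48.2 against 0.780 and 0.848 CPM, so that the cells compared at 48 h differed in these markers as well, and their part was not tested.

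The change of the Mtf2 null effect between undifferentiated cells and 48 h was tested directly. In the mesoderm series it was positive in 20 members and negative in 1, where 7.95% and 10.2% of all genes were called, with a member median of 1.06 on the log2 scale against 0.00 over all genes. In the endoderm series it was positive in 18 and negative in 1, against 11.3% and 10.8%, with a median of 0.97 against 0.03. All 5 mevalonate enzymes, both isoprenoid enzymes and all 3 enzymes from squalene to lanosterol were in the positive set of the mesoderm series, and 4 of 5, 2 of 2 and 1 of 3 in that of the endoderm series. These tests share the undifferentiated libraries with the comparison above, and are not independent of it.

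Scd2 carried the clearest change in the mesoderm series. It was at 459 and 304 CPM in WT before culture and 375 and 333 CPM at 48 h, while the Mtf2 null went from 128 and 125 to 580 and 618 CPM (difference of effects 2.35 ± 0.26, adjusted p = 7.7e-06). Insig1 went from 66.6 and 54.7 to 54.4 and 82.7 CPM in WT and from 23.2 and 25.7 to 107 and 130 CPM in the Mtf2 null (2.10 ± 0.27, adjusted p = 4.0e-05). Dhcr7 went from 43.8 and 33.2 to 25.3 and 47.4 CPM in WT and from 9.43 and 10.3 to 45.2 and 47.4 CPM in the Mtf2 null (2.32 ± 0.33, adjusted p = 9.1e-05). For each of the 3 the WT ranges before culture and at 48 h overlapped, and both Mtf2 null libraries at 48 h lay above both undifferentiated ones. In Scd2 the Mtf2 null was higher still between these times, at 764 and 788 CPM at 5 h and 706 and 677 CPM at 24 h. Elovl6 was the negative member: 102 and 91.3 CPM rose to 132 and 128 CPM in WT, and 249 and 241 CPM fell to 135 and 139 CPM in the Mtf2 null (-1.27 ± 0.15, adjusted p = 2.0e-05).

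In the endoderm series Ebp led, with 9.57 and 9.28 CPM before and 7.62 and 5.65 CPM after culture in WT and 12.6 and 13.2 CPM before and 43.7 and 39.2 CPM after in the Mtf2 null (2.18 ± 0.21, adjusted p = 3.4e-07). Scd2 went from 469 and 330 to 781 and 677 CPM in WT and from 123 and 121 to 897 and 837 CPM in the Mtf2 null (1.96 ± 0.22, adjusted p = 1.7e-06). Dhcr7 went from 40.3 and 35.1 to 59.6 and 61.1 CPM and from 10.2 and 11.9 to 53.5 and 53.3 CPM (1.59 ± 0.21, adjusted p = 1.7e-05). Scd2 and Dhcr7 rose in both genotypes and further in the Mtf2 null, while Ebp was lower in WT after culture than before. Elovl6 was again the negative member (-1.74 ± 0.15, adjusted p = 5.8e-08), going from 104 and 93.9 to 131 and 132 CPM in WT and from 228 and 217 to 86.1 and 91.0 CPM in the Mtf2 null. Srebf1 (1.16) and Insig1 (1.39) were positive and Srebf2 was not called in either series (0.27 and 0.15).

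**Figure D3:**
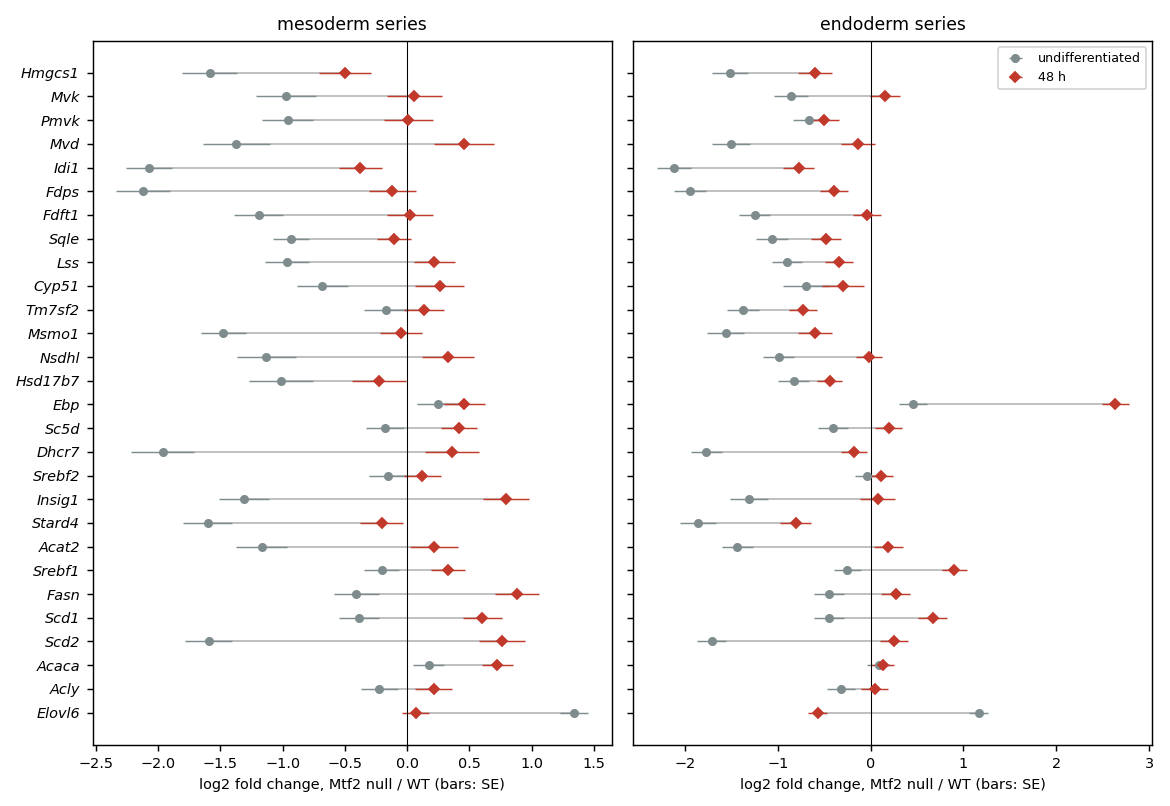
Log2 fold change of Mtf2 null over WT (x axis) for each of the 28 members (rows), in undifferentiated cells (grey circles, from the same series alone) and at 48 h (red diamonds), with bars for the SE, in the mesoderm series (left) and the endoderm series (right). Most circles lie left of 0 and most diamonds lie to the right of their circles, Elovl6 moves the other way, and Ebp reaches 2.63 at 48 h of the endoderm series.

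On the other lists the effect of the Mtf2 null on Acss2 (1.73 and 2.30) also changed upwards in the mesoderm and endoderm series, as did that on Fads2 (1.34 and 1.24) and Tmem97 (0.98 and 1.09). Among the 20 other sterol genes tested 3 were positive and 2 negative in the mesoderm series and 4 and 3 in the endoderm series, among 17 other fatty acid synthesis genes 4 and 0, and 6 and 1, and among 16 genes of fatty acid oxidation 1 and 4, and 4 and 2.

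Some members also changed in WT cells during directed culture. In the first and last steps of mesoderm culture the counts were near the share of all genes. From undifferentiated cells to 5 h of mesoderm culture 8 members rose and 3 fell, against 21.1% and 15.5% of all genes, and 5 of the 8 were fatty acid enzymes. Fasn went from 452 and 288 to 704 and 797 CPM (1.02 ± 0.18, adjusted p = 0.00021), Srebf1 from 43.8 and 34.1 to 57.1 and 64.9 CPM (adjusted p = 0.0011) and Elovl6 from 102 and 91.3 to 143 and 131 CPM (adjusted p = 0.0016). The 3 that fell were sterol genes: Msmo1 went from 79.1 and 95.2 to 45.2 and 36.8 CPM (-1.09 ± 0.18, adjusted p = 0.00011), Idi1 from 91.7 and 110 to 68.4 and 54.2 CPM and Insig1 from 66.6 and 54.7 to 36.4 and 35.1 CPM. The count of 11 was 5 without undifferentiated library 2 and 7 without either 5 h library.

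In endoderm culture the first 5 h gave 4 members that rose and 7 that fell, against 17.8% and 12.4% of all genes. Fasn went from 442 and 285 to 632 and 629 CPM (0.80 ± 0.16), Elovl6 from 104 and 93.9 to 140 and 140 CPM (0.50 ± 0.10) and Srebf1 from 45.1 and 32.1 to 51.3 and 55.6 CPM (0.47 ± 0.14). Those that fell were 6 sterol enzymes and Insig1, led by Msmo1, from 97.6 and 108 to 38.2 and 37.2 CPM (-1.45 ± 0.20, adjusted p = 2.4e-05), Dhcr7, from 40.3 and 35.1 to 23.0 and 19.5 CPM (-0.82 ± 0.15, adjusted p = 0.00035), and Insig1, from 63.6 and 54.2 to 27.6 and 29.4 CPM (-1.05 ± 0.20, adjusted p = 0.00065). The count of 11 was 7 without 5 h library 2. The change of medium at the start of directed culture came together with the time step, and the 2 cannot be told apart.

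Between 5 h and 24 h the called changes were rises, though not in every fit. In mesoderm culture the count that rose was near the share of all genes. In mesoderm culture 5 members rose and 0 fell, against 15.1% and 11.5% of all genes: Scd1 went from 75.5 and 77.1 to 129 and 127 CPM (adjusted p = 0.0015), Tm7sf2 from 19.2 and 18.6 to 33.1 and 31.5 CPM and Nsdhl from 12.2 and 13.7 to 24.0 and 24.3 CPM, with Insig1 (0.74) and Msmo1 (0.58). In endoderm culture 8 rose and 0 fell, against 9.89% and 8.58%: Tm7sf2 went from 8.57 and 6.37 to 15.2 and 11.8 CPM (adjusted p = 0.00069), Scd1 from 64.5 and 68.2 to 110 and 100 CPM and Dhcr7 from 23.0 and 19.5 to 33.4 and 31.1 CPM. With only the 2 groups compared in the fit, 11 rose and 3 fell in mesoderm culture and 14 rose and 2 fell in endoderm culture. The mesoderm count was 3 without 24 h library 1 or 5 h library 2. The endoderm count was 5 without 24 h library 1, 4 without 24 h library 2 or 5 h library 2, and 2 without 5 h library 1.

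On the last day most sterol genes of WT cells rose in endoderm culture. From 24 h to 48 h of endoderm culture 20 members rose and 1 fell in WT cells, against 10.1% and 9.43% of all genes, with a median of 0.66 against 0.00 over all genes. Msmo1, the sterol C4 methyl oxidase, went from 61.8 and 67.8 to 163 and 207 CPM (2.85-fold, adjusted p = 5.1e-06), Cyp51, lanosterol demethylase, from 61.04 and 72.7 to 185 and 274 CPM (3.43-fold, adjusted p = 1.2e-05) and Fdps from 60.5 and 55.5 to 119 and 135 CPM (2.19-fold, adjusted p = 1.3e-05). Insig1 rose from 46.6 and 53.5 to 103 and 123 CPM (2.26-fold) and Srebf2 from 198 and 180 to 282 and 288 CPM (1.51-fold, adjusted p = 0.0019), while Srebf1 (55.01 and 48.9 against 52.1 and 45.9 CPM) was not called. By role, 7 of 8 later sterol enzymes, 3 of 3 from squalene to lanosterol, 2 of 2 isoprenoid and 3 of 5 mevalonate enzymes rose, and 2 of 6 fatty acid enzymes. Ebp was the one that fell, from 17.2 and 17.1 to 7.62 and 5.65 CPM (-1.36 ± 0.15, adjusted p = 1.1e-06). Over the same step the summed neural ectoderm markers (Pax6, Sox1, Nes, Six3) went from 12.2 and 11.4 to 55.7 and 71.4 CPM and the pluripotency markers from 2604 and 2607 to 1370 and 1307 CPM, and their part was not tested. The factors in the medium were changed at 24 h in both cultures, and medium and time cannot be told apart in this step.

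In mesoderm culture over the same day 3 members rose and 4 fell, against 9.53% and 12.5% of all genes. Scd1 (129 and 127 to 189 and 231 CPM, adjusted p = 0.0025), Msmo1 (65.5 and 57.1 to 76.2 and 109 CPM) and Hmgcs1 (187 and 173 to 244 and 332 CPM) rose. Fasn went from 599 and 622 to 269 and 335 CPM (2.02-fold lower, adjusted p = 0.00034), Ebp from 21.4 and 20.3 to 10.0 and 12.2 CPM (1.88-fold lower) and Scd2 from 680 and 676 to 375 and 333 CPM (1.92-fold lower). Acaca (-0.49) was the last of these, so 3 of the 4 that fell were fatty acid enzymes. The count of 7 was 4 without 24 h library 2. The difference between the lineages was not tested, because their count tables were fitted separately.

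In undifferentiated libraries labelled Jarid2 null fewer members differed from WT than in the Mtf2 null, and several calls rested on single libraries. In undifferentiated cells 8 members were higher and 1 lower than in WT, against 11.3% and 9.11% of all genes, with a median of 0.16 against -0.01. Lss, which closes squalene epoxide to lanosterol, was at 59.9, 51.3, 62.8 and 57.2 CPM in WT and 76.9, 68.9, 80.0 and 71.7 CPM (0.36 ± 0.08, adjusted p = 0.004), and Cyp51 at 73.7, 77.5, 71.1 and 73.0 against 123.2, 88.4, 117.5 and 84.7 CPM (0.49 ± 0.11, adjusted p = 0.0055). Dhcr7 was at 57.8, 44.9, 58.1 and 43.9 CPM against the WT values above (0.45 ± 0.11, adjusted p = 0.0097). Srebf2 (221.6, 186.3, 232.8 and 187.0 CPM, 0.38 ± 0.10, adjusted p = 0.017) and Insig1 (82.7, 62.1, 85.0 and 66.4 CPM, 0.33 ± 0.10, adjusted p = 0.031) were also higher, and Srebf1 (39.4, 32.6, 41.5 and 34.97 CPM) was not called. Idi1 went the other way, at 79.5, 74.9, 77.99 and 70.1 CPM (-0.45 ± 0.08, adjusted p = 0.0017), as it had in the Mtf2 null, which shares the WT libraries. For each of these genes the label's library 1 was above its library 2 in both series. The WT libraries showed the same order for Lss, Dhcr7, Srebf2, Insig1 and Srebf1, and the reverse order for Cyp51 and Idi1. The count of 9 was 0 with same-numbered libraries summed or in the mesoderm series alone, 3 in the endoderm series alone (Srebf2, Dhcr7 and Elovl6), and 4 without library 1 of the label in either series.

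During directed culture 4 comparisons of the label with WT called 0 members. Few genes of any kind were called in them, so a count of 0 says little about the members. The counts were 0 higher and 0 lower at 5 h in the mesoderm series (0.125% and 0.0871% of all genes called), at 48 h in the mesoderm series (1.5% and 0.713%), at 5 h in the endoderm series (0.0831% and 0.0675%) and at 24 h in the endoderm series (0.234% and 0.0986%). Under edgeR at an unadjusted p under 0.05 these 4 comparisons had 2 higher and 2 lower, 0 and 1, 4 and 0, and 3 and 0 members, and DESeq2 called 0 in each. The endoderm count at 24 h was 1 without the label's library 1.

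At 24 h of mesoderm culture 3 members were higher and 5 lower, against 8.12% and 15.1% of all genes. Both counts were near the share of all genes and say little about the members in particular. More genes of any kind were called here than at the label's other times of directed culture. Sc5d (28.4 and 25.3 CPM in WT, 44.6 and 43.3 CPM in the label, adjusted p = 0.0013), Cyp51 (68.5 and 65.9 against 117 and 140 CPM, adjusted p = 0.0022) and Insig1 (63.5 and 56.4 against 75.0 and 102 CPM, adjusted p = 0.036) were higher. Srebf1 was at 63.2 and 63.7 CPM in WT and 31.4 and 39.1 CPM (1.80-fold lower, adjusted p = 0.00027), Ebp at 21.4 and 20.3 against 11.6 and 13.4 CPM and Fasn at 599 and 622 against 302 and 400 CPM. Acly (-0.55) and Scd2 (-0.66) were lower as well. The count of 8 was 5 without the label's library 1 or either WT library. Of the 16 oxidation genes 10 were lower in the same comparison and 0 higher, led by Acads (-0.99).

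At 48 h of endoderm culture 6 members were lower and 0 higher, against 3.5% and 3.72% of all genes. Msmo1 was at 163 and 207 CPM in WT and 93.7 and 105 CPM in the label (1.86-fold lower, adjusted p = 0.0059), Idi1 at 116 and 145 against 69.3 and 82.8 CPM (adjusted p = 0.0083) and Scd1 at 188 and 184 against 115 and 131 CPM (adjusted p = 0.023). Cyp51 (-0.81), Sc5d (-0.57) and Sqle (-0.53) were the others. The effect at 48 h minus that in undifferentiated cells was negative in 8 members and positive in 0, against 3.31% and 2.31% of all genes. Fdps went from 69.0 and 55.7 to 119 and 135 CPM in WT and from 93.3 and 73.5 to 76.6 and 107 CPM in the label (-0.89 ± 0.21, adjusted p = 0.016), Cyp51 from 77.7 and 77.02 to 185 and 274 CPM and from 131 and 90.1 to 119 and 142 CPM (-1.33 ± 0.33, adjusted p = 0.019), and Srebf2 from 174 and 134 to 282 and 288 CPM and from 235 and 190 to 231 and 246 CPM (-0.72 ± 0.18, adjusted p = 0.02). In mesoderm culture the same difference was called in 0 members in either direction (0.664% and 1.11% of all genes; 0 and 3 at an unadjusted p under 0.05 in edgeR, 0 in DESeq2), and in 2 without WT 48 h library 1. The endoderm counts rested on single libraries: the 6 became 0 without WT library 2 or the label's library 1 and 3 without its library 2, and the 8 became 0 without WT library 2 at 48 h, undifferentiated WT library 2, or the label's library 1 at either time, and 5 without undifferentiated WT library 1 or the label's 48 h library 2.

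In the bulk embryoid bodies each label was compared with its own WT line over the 4 days, with day as a block. Libraries labelled Mtf2 null were higher in 8 members and lower in 1, against 9.85% and 8.87% of 15850 genes. Mvd, mevalonate decarboxylase, was at 62.9, 45.3, 41.5 and 57.0 CPM on days 0, 2, 4 and 7 in the label and at 29.9, 29.7, 19.9 and 17.8 CPM in the WT line, above it on all 4 days (1.06 ± 0.17, adjusted p = 0.00026). Pmvk was at 77.1, 51.3, 29.2 and 43.2 against 32.3, 35.4, 15.0 and 16.2 CPM (0.99 ± 0.19, adjusted p = 0.0014) and Stard4 at 115, 53.9, 99.5 and 172 against 70.0, 46.4, 34.2 and 35.9 CPM (1.14 ± 0.22, adjusted p = 0.0015). Msmo1 (1.16), Lss (0.75), Hmgcs1 (0.61), Fdft1 (0.57) and Cyp51 (0.51) were also higher. Acly, ATP citrate lyase, was lower, at 497, 425, 342 and 394 against 705, 736, 442 and 491 CPM (-0.53 ± 0.14, adjusted p = 0.013).

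The WT comparators of the 2 bulk sets differed (E14 in directed culture, pclwt-mtf2wt here), and their effects were not compared by a test. The median difference of the members on the scale of log2 (CPM + 1) was 0.07 at day 0, 0.03 at day 2, 0.49 at day 4 and 0.81 at day 7, with 15, 14, 22 and 24 of 28 above 0. Visceral endoderm markers, of which 5 of 6 were higher, summed to 4328 CPM at day 7 in the label and 30.4 CPM in the WT line, and their part was not tested. The count of 9 was 4 without day 4 or without day 7. Srebf2 was at 430, 265, 309 and 391.7 CPM against 341, 271, 241 and 220 CPM, Srebf1 at 107, 52.3, 67.1 and 88.2 against 102, 77.6, 68.8 and 58.3 CPM and Insig1 at 185, 143, 131 and 170 against 291, 192, 161 and 100 CPM, none of them called.

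**Figure D4:**
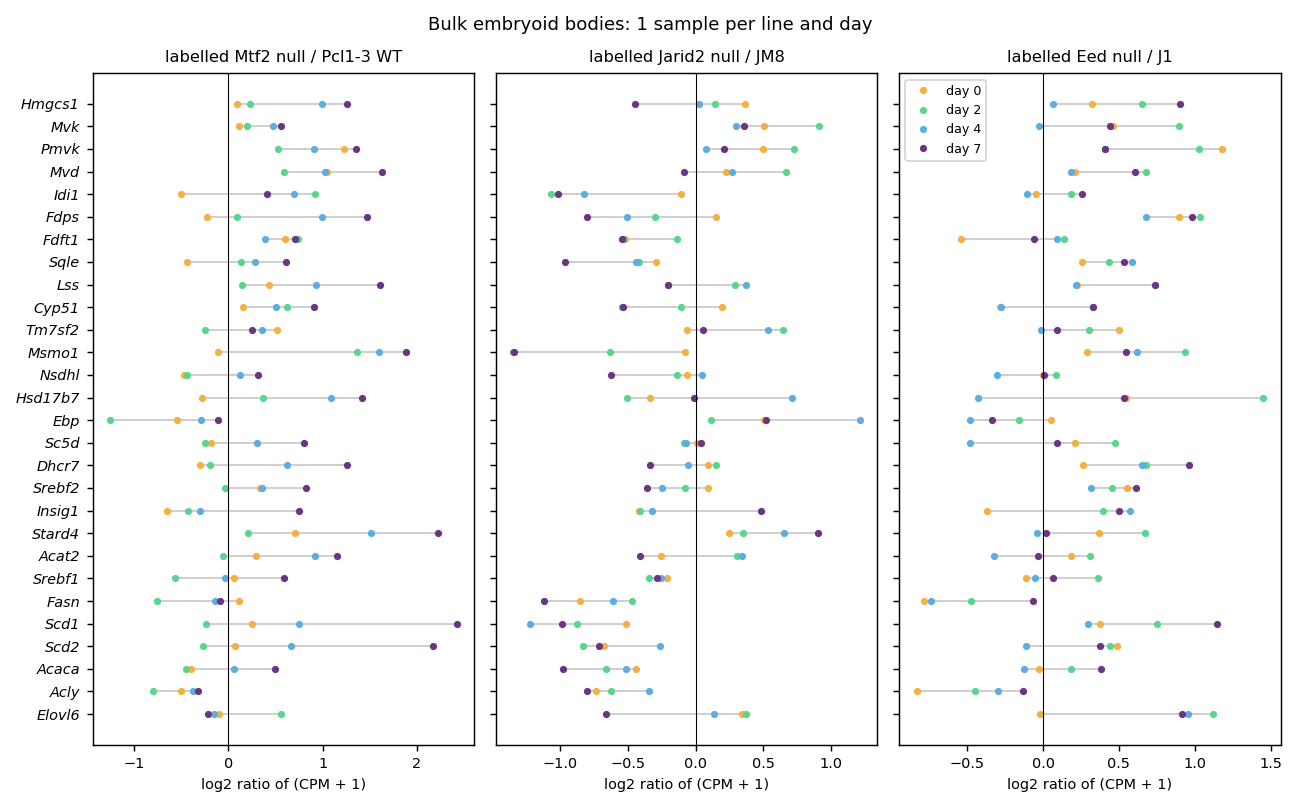
Log2 ratio of (CPM + 1) between each labelled mutant line and its WT line (x axis) for each of the 28 members (rows) of the bulk embryoid bodies, 1 point for each of days 0, 2, 4 and 7 and 1 panel per label. The median over the members rises to 0.81 at day 7 in libraries labelled Mtf2 null, falls to -0.43 in those labelled Jarid2 null and is 0.39 in those labelled Eed null.

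Libraries labelled Jarid2 null were lower in 7 members and higher in 1, against 7.87% and 7.1%, and the fatty acid enzymes led. Acly was at 533, 537, 342 and 319 CPM against 887, 831, 435 and 557 CPM in the WT line (-0.65 ± 0.14, adjusted p = 0.0043), Fasn at 592, 791, 445 and 377 against 1075, 1095.5, 682 and 822 CPM (-0.79 ± 0.19, adjusted p = 0.0084) and Fdft1 at 153, 166, 74.5 and 88.2 against 220, 182, 109 and 129 CPM (-0.46 ± 0.13, adjusted p = 0.025). All 3, picked by the test over the same days, were below the WT line on every day. Scd1 (-0.93), Idi1 (-0.79), Acaca (-0.68) and Sqle (-0.56) were lower and Mvk was higher (23.8, 27.5, 14.9 and 20.8 against 16.5, 14.2, 11.9 and 16.1 CPM, adjusted p = 0.036). The count of 8 was 3 without day 2 and 1 without day 4 or day 7. Visceral endoderm markers summed to 3635 CPM at day 7 against 111 CPM.

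Libraries labelled Eed null were higher in 4 members and lower in 0, against 5.87% and 5.65% of genes. Pmvk was at 96.3, 55.6, 37.7 and 42.3 CPM against 42.1, 26.8, 28.1 and 31.5 CPM (0.76 ± 0.19, adjusted p = 0.015), Fdps at 352, 323, 224 and 289 against 189, 157, 139 and 145 CPM (0.90 ± 0.24, adjusted p = 0.02) and Elovl6 at 195, 333, 210 and 185 against 198, 153, 108 and 97.3 CPM (0.74 ± 0.21, adjusted p = 0.027). Srebf2 was higher on all 4 days, at 547, 313, 439 and 430 against 373, 228, 352 and 281 CPM (0.48 ± 0.13, adjusted p = 0.027). The count was 1 without day 2, 0 without day 4 and 2 without day 7.

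The columns of day 0 are named as monolayer cells and those of later days as embryoid bodies, so that culture form and time cannot be told apart in the first step. In the 3 WT lines 1 member rose and 4 fell from day 0 to day 2, against 5.99% and 6% of 14553 genes. Idi1 rose, from 104, 169 and 94.2 CPM to 178, 305 and 165 CPM in the Mtf2 WT, Jarid2 WT and Eed WT lines (0.77 ± 0.17, adjusted p = 0.026). All 3 regulators were among those that fell: Srebf1 from 102, 108 and 125 to 77.6, 73.3 and 78.7 CPM, Insig1 from 291, 304 and 223 to 192, 193 and 156 CPM and Srebf2 from 341, 402 and 373 to 271, 284 and 228 CPM (adjusted p = 0.027, 0.029 and 0.033), with Dhcr7 (-0.51). The 3 lines, on which these calls rest, moved the same way for each. From day 2 to day 4, 6 members fell and 0 rose, against 11.9% and 14.9%. Acly went from 736, 831 and 661 to 442, 435 and 508 CPM (adjusted p = 0.0088), Idi1 from 178, 305 and 165 to 75.0, 145 and 132 CPM and Nsdhl from 50.9, 49.3 and 51.7 to 22.1, 26.1 and 36.1 CPM. From day 4 to day 7, 0 rose and 0 fell (0.0962% and 0.0275%); at an unadjusted p under 0.05 limma gave 1 and 2, and edgeR on recovered reads called 0. Without the Mtf2 WT or Jarid2 WT line the count of 5 for the first step was 0 and without Eed WT it was 1, and the count of 6 for the second was 0 without Jarid2 WT and 11 without Eed WT.

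In single cells the members were followed as their share of all UMIs in a library, over 4949 cells in 202 to 347 cells per library. With 1 library per genotype and day there was no test between genotypes, and the intervals (95%, exact) cover counting error only. Barcodes name the 384 wells of a plate, so the same 384 names recur in other libraries, 22 of them in all 16. In WT cells the share was 0.349% at day 0, 0.235% at day 4, 0.370% at day 7 and 0.452% at day 10. It was lowest at day 4, with a day 4 to day 0 ratio of 0.672 (0.649 to 0.695), and rose 1.58-fold (1.52 to 1.64) to day 7.

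Before differentiation the Mtf2 null and Jarid2 null libraries had a smaller share of member UMIs than WT and the Eed null library a larger one. The shares at day 0 were 0.250% in Mtf2 null, 0.236% in Jarid2 null and 0.420% in Eed null, which gives ratios to WT of 0.717 (0.697 to 0.737), 0.675 (0.655 to 0.695) and 1.204 (1.174 to 1.235). The bulk libraries labelled Jarid2 null, with 8 members higher, pointed the other way from the Jarid2 null single-cell library, and the 2 assays were not compared by a test.

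**Figure D5:**
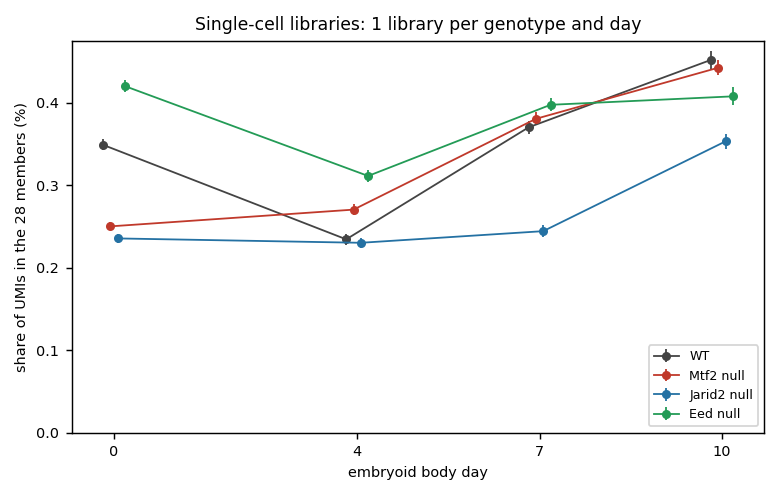
Share of all UMIs that came from the 28 members, in percent, against day of embryoid body culture, with 1 line per genotype and 1 library per point, with exact 95% intervals for counting error. At day 0 Eed null (0.420%) is above WT (0.349%), and Mtf2 null (0.250%) and Jarid2 null (0.236%) are below it, and by day 10 all 4 lie between 0.353% and 0.452%.

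By gene, Stard4, Mvd, Acat2, Tm7sf2 and Lss had the lowest ratios at day 0 in the Mtf2 null. Stard4 was at 22.9 CPM against 63.2 CPM in WT (ratio 0.362, 0.278 to 0.468), Mvd at 13.9 against 34.1 CPM (0.407), Acat2, the thiolase that starts the pathway, at 107 against 259 CPM (0.415), and Lss at 49.6 against 109 CPM (0.454). Elovl6 was higher here too, at 153 against 108 CPM (1.42, 1.24 to 1.63), and Srebf2 was at 60.4 against 68.6 CPM (0.881, 0.727 to 1.07). Idi1, the member with the largest bulk difference, was at 163 against 165 CPM (0.985, 0.874 to 1.11). In Jarid2 null cells Mvd (0.374), Stard4 (0.389), Hsd17b7 (0.400) and Lss (0.447) had the lowest ratios and Elovl6 was at 101 CPM (0.931, 0.795 to 1.09). In Eed null cells Fdps was at 35.9 against 9.37 CPM (3.84, 2.53 to 6.01), Elovl6 at 216 CPM (2.00, 1.75 to 2.28) and Msmo1 at 784 against 429 CPM (1.83, 1.71 to 1.95), while Acat2 was at 160 CPM (0.618, 0.553 to 0.691).

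At later days the ratio stayed furthest from 1 in Jarid2 null cells on days 7 and 10. At day 4 the ratios to WT were 1.154 (1.113 to 1.196) in Mtf2 null, 0.982 (0.946 to 1.02) in Jarid2 null and 1.33 (1.28 to 1.38) in Eed null. At day 7 they were 1.03 (0.997 to 1.06), 0.660 (0.636 to 0.684) and 1.07 (1.04 to 1.11), and at day 10 0.979 (0.948 to 1.01), 0.781 (0.754 to 0.810) and 0.902 (0.870 to 0.936). Several of these moved across 1 with another weighting. With cells weighted equally and with each cell thinned to 2500 UMIs, Eed null at day 10 was 1.04 and 1.05, Mtf2 null at day 10 was 1.09 and 1.10, Jarid2 null at day 4 was 1.04 and 1.07, and Mtf2 null at day 7 was 0.987 and 0.999. Insig1 was below WT at day 4 in Mtf2 null (47.9 against 97.1 CPM, ratio 0.494) and Jarid2 null (47.6 CPM, 0.490), and Elovl6 was above it in all 3 mutants at that day (ratios 1.86, 1.65 and 2.08). Fasn was above WT at day 10 in Mtf2 null (123 against 66.5 CPM, 1.85, 1.46 to 2.37) and Jarid2 null (108 CPM, 1.63, 1.26 to 2.11).

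The makeup of the libraries moved with these shares. Pluripotency markers summed to 2820 CPM at day 0 in WT, 2328 in Mtf2 null, 2297 in Jarid2 null and 3541 in Eed null, and to 897 CPM at day 7 in WT against 1325 CPM in Jarid2 null. The part of the cell types in the share of member UMIs was not tested. Over the 22 clusters of the deposited annotation the share ran from 0.198% in cluster 17 (125 cells, 39.2% of them from the Jarid2 null day 10 library) to 0.585% in cluster 18 (114 cells, 55.3% from WT day 10). Clusters 16 and 15 followed at 0.493% and 0.489%. Cluster 21, with visceral endoderm markers at 1955 CPM, was at 0.280%. Scd2 alone was at 143 CPM in cluster 17 and 1166 CPM in cluster 18.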

How the data were processed

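The bulk RNA was depleted of ribosomal RNA before sequencing. For the directed series the authors deposited estimated counts per gene from Salmon on GRCm38/mm10, which were rounded to whole numbers here. For the bulk embryoid bodies the authors deposited normalized values, counts divided by 1 size factor per column (a signal unit), from which whole reads were recovered for 100% of values within 0.01. For the single cells the authors deposited UMI counts per gene and well (Bowtie2 and HTSeq), with their own cluster for each cell. Tool versions and the annotation release were not given in the sources used here.

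Genotypes and times were compared in the directed series with edgeR (version 4.0.16, quasi-likelihood test, TMM scaling, R 4.3.3) on genes kept by its filterByExpr function, with all groups of a series in 1 fit, and in undifferentiated cells over both series with the series as a term. The embryoid body values were tested with limma (3.58.1, trend) on log2 CPM with TMM scaling and a prior count of 2, keeping genes that reached 1 CPM in 4 or more samples, with day or line as a block, after averaging the 1 or 2 columns of each sample. Fold changes there are on that scale and understate the change of low genes. The threshold for a call was 0.05 on p-values adjusted by Benjamini-Hochberg over all genes tested. CPM are given per library after the same scaling. Single-cell values are pooled counts per library with exact 95% intervals and no test. Scripts were tested on simulated counts first.

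The members and the other lists were chosen with earlier results of these data known. All 28 members were counted in each comparison. Values per library are given for the 3 members with the smallest adjusted p in each direction and for Srebf2, Srebf1 and Insig1, and up to 4 genes of another list were named by their largest change among those called. One gene that this rule would name is not reported here. Alternatives were DESeq2 (1.42.0) with its size factors, edgeR with RLE scaling, no filter on low values, a prior count of 0.5, the deposited scaling as log2(value + 1), edgeR on the recovered reads, only the groups compared, replicate blocks, leaving out single libraries, and for single cells the mean over cells, thinning to 2500 UMIs and leaving out the most abundant member. Columns of the endoderm table that name 28 h were taken as the 48 h samples, whose labels they otherwise match. The count files deposited for single libraries were not used here.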

Additional observations from a re-analysis of the deposited data

Results flagged for a closer look

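Msmo1 in undifferentiated Mtf2 null cells stood out by 1 library: library 1 of the endoderm series was at 37.2 CPM, far from the other 3 for the width of the group. It was 1 of 84 such groups examined, and chance flags about 1 in 20.

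The effect of the Mtf2 null differed between undifferentiated cells and 48 h, by a test of the difference in edgeR, in 21 members in the mesoderm series and 19 in the endoderm series. In the mesoderm series the difference on the log2 scale was 2.35 for Scd2, 2.10 for Insig1, 2.32 for Dhcr7 and -1.27 for Elovl6. In the endoderm series it was 2.18 for Ebp, 1.96 for Scd2, 1.59 for Dhcr7 and -1.74 for Elovl6. In libraries labelled Jarid2 null 8 members differed by the same test in the endoderm series, all downwards, with -0.89 for Fdps, -1.33 for Cyp51 and -0.72 for Srebf2.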

How the results depend on the processing

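The number of members called moved by more than 1.5 times under these settings. Without a filter on low counts it was 10 for Mtf2 null at 5 h and 6 at 24 h in the mesoderm series, 6 at 24 h in the endoderm series, 1 for the Jarid2 label at 5 h, at 48 h and for its change to 48 h in the mesoderm series, 2 at 24 h in the endoderm series, 13 for WT from 5 h to 24 h in the endoderm series, 3 for embryoid bodies labelled Jarid2 null and 1 for day 0 to 2. With only the 2 groups compared it was 13 and 10 for Mtf2 null at 5 h and 24 h in the mesoderm series, 9 and 9 in the endoderm series, 5 for the Jarid2 label at 5 h in the endoderm series, and 14 and 16 for WT from 5 h to 24 h in mesoderm and endoderm culture. DESeq2 called 1 for Mtf2 null at 24 h in the endoderm series. In undifferentiated cells the Jarid2 label gave 0 with same-numbered libraries summed (an alternative chosen after seeing the data), 0 in the mesoderm series alone and 3 in the endoderm series alone. Without the day block the embryoid body labels gave 2, 0 and 0. The causes were not tested.

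Leaving out 1 library at a time gave, at lowest and highest, for Mtf2 null in undifferentiated cells 22 and 25, at 5 h, 24 h and 48 h of the mesoderm series 1 and 4, 0 and 1, 4 and 11, and of the endoderm series 1 and 3, 1 and 3, 7 and 13, and for its change to 48 h 16 and 24, and 15 and 20. For the Jarid2 label it gave 4 and 11 in undifferentiated cells, 0 and 0, 5 and 9, 0 and 0 in the mesoderm series, 0 and 0, 0 and 1, 0 and 8 in the endoderm series, and 0 and 2, and 0 and 12, for the change to 48 h. For WT steps it gave 5 and 10, 3 and 5, 4 and 10 in mesoderm culture and 7 and 12, 2 and 5, 17 and 18 in endoderm culture. For embryoid bodies, leaving out a day or line, it gave 4 and 12, 1 and 8, 0 and 5 for the Mtf2, Jarid2 and Eed labels and 0 and 1, 0 and 11, 0 and 0 for the day steps.

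Single-cell ratios moved as follows. With cells weighted equally Mtf2 null was 0.697 at day 0, 0.987 at day 7 and 1.09 at day 10, Jarid2 null 1.04 at day 4 and 0.857 at day 10, and Eed null 1.17, 1.38, 1.12 and 1.04 at days 0, 4, 7 and 10. With cells thinned to 2500 UMIs Mtf2 null was 1.21 at day 4 and 1.10 at day 10, Jarid2 null 1.07, 0.636 and 0.882 at days 4, 7 and 10, and Eed null 1.39 at day 4 and 1.05 at day 10. Without the most abundant member Jarid2 null was 0.709 at day 7 and 0.831 at day 10, and Eed null 1.25, 1.38 and 1.11 at days 0, 4 and 7. Of single gene results 1511 stayed on the same side of the threshold, 21 gained a call, 161 lost it and 0 reversed. Direction was compared only where the main or the other setting called the gene. A replicate block gave 25 and 13 members for Mtf2 null and the Jarid2 label in undifferentiated cells and changed no count by more than 1.5 times. Same-numbered libraries of mutant and WT did not deviate together throughout (correlations from -0.149 to 0.267), and the numbers were not used as pairs. The highest correlations, 0.267 and 0.201, were those of undifferentiated WT and Jarid2 label libraries in the mesoderm and endoderm series. They were near the lowest one between the 2 series (0.227, Mtf2 null), so pairing is not excluded there.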
